A study of Mus musculus with 2 samples.

Results

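Non-cycling B16F10 melanoma cells were taken here as the sorted tumour cells in which transcripts of the division machinery were not detected. They were chosen on measured values. Of 9644 RNA barcodes with at least 1000 genes and at most 15% mitochondrial UMIs (unique molecular identifiers, 1 per captured transcript), 3105 had 0 UMIs summed over 10 mitotic genes and at most 1 UMI summed over 12 replication genes. That is 32.2% of the filtered barcodes (95% Clopper-Pearson interval 31.3 to 33.1%), and the RNA library held 15961 barcodes in all.

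B16F10 is a metastatic mouse melanoma line derived from C57BL/6 mice, here carrying GFP. The cells were sorted as GFP-positive, CD45-negative and DAPI-negative from the lungs of wild-type (WT) mice, from the lungs of Prf1-/- mice and from the knees of Prf1-/- mice (called bone below). Prf1 encodes perforin, the pore-forming protein with which killer lymphocytes kill their targets, and the knockout is in the host, not in the tumour cells. Each condition carried 1 hashtag antibody and all were run as 1 pooled 10x 3′ capture, so each condition is 1 sample and no test between conditions was possible.

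How many mice stand behind each hashtag was not stated in the labels. Lungs were digested for 20 min and knees for 30 min at 37 °C, so that site and digestion time cannot be told apart. The host genotype could not be checked from these cells, since the knockout is not in the tumour cells. Prf1 had 0 UMIs in the non-cycling and in the remaining cells of every hashtag group.

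A barcode was given to a group where its largest hashtag count was at least 2 times the second. Among the non-cycling cells, 446 were from WT lung, 586 from Prf1-/- lung and 92 from Prf1-/- bone; 59 were ambiguous and 1922 had no row in the hashtag table. Their summed UMIs were 1171441, 1495151 and 249396 in the 3 groups. A count of 3 UMIs, used as the floor of detection, was worth 2.56, 2.01 and 12.03 CPM (UMIs per 1000000), so low transcripts were poorly resolved in bone.

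As background, a cell enters division when D-type cyclins with Cdk4 and Cdk6 inactivate the retinoblastoma family, which frees E2F factors to switch on the replication genes of S phase. Genes of G2 and mitosis are switched on later, through elements called CHR and CCAAT in their promoters. In cells that leave the cycle, CDK inhibitors such as p21 (Cdkn1a) block the kinases and the DREAM complex holds both gene sets off. Differentiated pigment cells divide little, and their melanin genes are driven by the factor Mitf.

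The 10 mitotic genes of the rule were Top2a, Mki67, Ube2c, Birc5, Cenpf, Prc1, Nusap1, Cdca8, Tpx2 and Ccnb1, which untangle, segregate and split the chromosomes or trigger mitosis. Together they stood at 1796 CPM in the other 6539 filtered barcodes (the rest) and at 0 UMIs in the non-cycling cells. The 12 replication genes were Pcna, Mcm2, Mcm3, Mcm4, Mcm5, Mcm6, Mcm7, Tyms, Rrm2, Gins2, Hells and Uhrf1, which unwind and copy DNA, make its nucleotides and copy its methylation. They stood at 130 CPM against 1274 CPM. These differences were set by the choice of cells.

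Promoter sequences are shown as examples for 4 genes that the rule did not use and that were lower in the comparison below. Cdc20 activates the ubiquitin ligase that starts anaphase, Plk1 is a mitotic kinase, Cdk1 is the kinase of mitotic entry, and Clspn (claspin) carries the replication checkpoint signal. Each window runs from 250 bases before to 50 bases after the RefSeq transcription start on GRCm38.p6, 5′ to 3′ on the gene's own strand. Capitals mark TTTGAA (the CHR letters), CCAAT, and GCGGGAA or GCGCGAA (E2F-like letters), each searched on both strands, so that a reverse complement also counts.
Cdc20 (chr4:118437294-118437593, minus strand): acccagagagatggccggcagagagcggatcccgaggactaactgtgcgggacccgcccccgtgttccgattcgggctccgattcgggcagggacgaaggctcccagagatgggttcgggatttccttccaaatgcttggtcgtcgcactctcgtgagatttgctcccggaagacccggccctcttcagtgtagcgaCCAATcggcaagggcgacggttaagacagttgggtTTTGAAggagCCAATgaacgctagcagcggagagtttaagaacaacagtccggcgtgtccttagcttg
Plk1 (chr7:122159185-122159484, plus strand): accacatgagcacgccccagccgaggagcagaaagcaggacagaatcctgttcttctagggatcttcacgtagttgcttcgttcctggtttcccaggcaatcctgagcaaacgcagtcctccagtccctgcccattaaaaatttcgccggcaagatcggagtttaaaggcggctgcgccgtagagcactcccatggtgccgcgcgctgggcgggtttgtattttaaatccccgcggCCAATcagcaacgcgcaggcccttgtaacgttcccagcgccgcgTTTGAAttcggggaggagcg
Cdk1 (chr10:69352863-69353162, minus strand): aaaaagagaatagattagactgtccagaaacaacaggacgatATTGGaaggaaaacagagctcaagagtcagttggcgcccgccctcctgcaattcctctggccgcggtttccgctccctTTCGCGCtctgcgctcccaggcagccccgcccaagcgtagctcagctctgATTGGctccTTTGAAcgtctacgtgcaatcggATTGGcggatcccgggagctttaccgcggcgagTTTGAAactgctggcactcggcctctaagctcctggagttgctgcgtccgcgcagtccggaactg
Clspn (chr4:126556730-126557029, plus strand): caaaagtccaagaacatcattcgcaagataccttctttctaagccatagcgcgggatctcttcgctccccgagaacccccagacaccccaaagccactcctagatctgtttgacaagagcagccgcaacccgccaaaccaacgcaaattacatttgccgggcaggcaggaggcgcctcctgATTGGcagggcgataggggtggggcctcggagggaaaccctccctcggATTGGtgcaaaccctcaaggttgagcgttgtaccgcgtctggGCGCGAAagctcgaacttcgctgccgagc

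In the Cdc20 window the CHR letters lay 18 bases before the start with CCAAT at 53 and 8 bases before it. The Cdk1 window held the CHR letters 71 and 15 bases before the start, CCAAT letters 208, 80 and 48 bases before it and E2F-like letters 130 bases before it. The Clspn window held no CHR letters, CCAAT letters 69 and 21 bases before the start and E2F-like letters 22 bases after it. Not every low gene had as many matches. The Cdc6 window, not shown, held E2F-like letters 138 bases before the start and neither CHR nor CCAAT letters.

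Over the gene lists, CHR letters were found in 28 of 37 G2 and M genes outside the rule (75.7%) and in 5 of 28 S phase genes outside the rule (17.9%). They were found in 4 of 19 pigmentation genes (21.1%), and 14.0% of all 6272 expressed genes with a promoter entry held them. E2F-like letters were found in 3 of the 37 G2 and M genes (8.11%), in 18 of the 28 S phase genes (64.3%) and in 14.0% of all expressed genes. CCAAT letters were in 75.7% of the G2 and M windows, 60.7% of the S phase windows and 42.6% of all. A match is a description of letters and not a binding site.

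The non-cycling cells were shallower than the rest, and the share that met the rule depended on depth. Their median was 2275 UMIs (quartiles 2003 and 2694) and 1186 genes per cell, against 2773 UMIs and 1392 genes in the rest. Of cells with fewer than 2000 UMIs 49.1% met the rule, of those with 3000 or more but under 4000 UMIs 367 of 2039 cells, and of those with 4000 or more 6.51%. When every cell was thinned to 1500 UMIs, 40.6% met it, and 12.5% of the cells outside the rule at full depth then fell inside. A cell without a detected cycle transcript is therefore not shown to lack it.

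The share was lower in bone than in either lung group. It was 36.3% in WT lung (446 of 1227 cells, 33.7 to 39.1%), 38.6% in Prf1-/- lung (586 of 1520, 36.1 to 41.1%) and 23.9% in bone (92 of 385, 19.7 to 28.5%). The bone interval lay below those of both lungs, which overlapped. The intervals cover counting error only, and mouse-to-mouse spread is unknown. Bone was also lowest among cells of like depth: from 2000 to under 2500 UMIs, 39.7% of bone cells (27 of 68, 28.0 to 52.3%) met the rule, against 57.0% (WT lung, 51.0 to 62.8%) and 60.7% (Prf1-/- lung, 55.7 to 65.6%). From 2500 to under 3000 UMIs the shares were 37.8%, 43.5% and 45.3%, with overlapping intervals, and after thinning to 1500 UMIs they were 34.3%, 46.9% and 49.6%. Bone had more cells with both mitotic and replication transcripts, 47.3% against 37.8% and 34.7%.

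**Figure D1:**
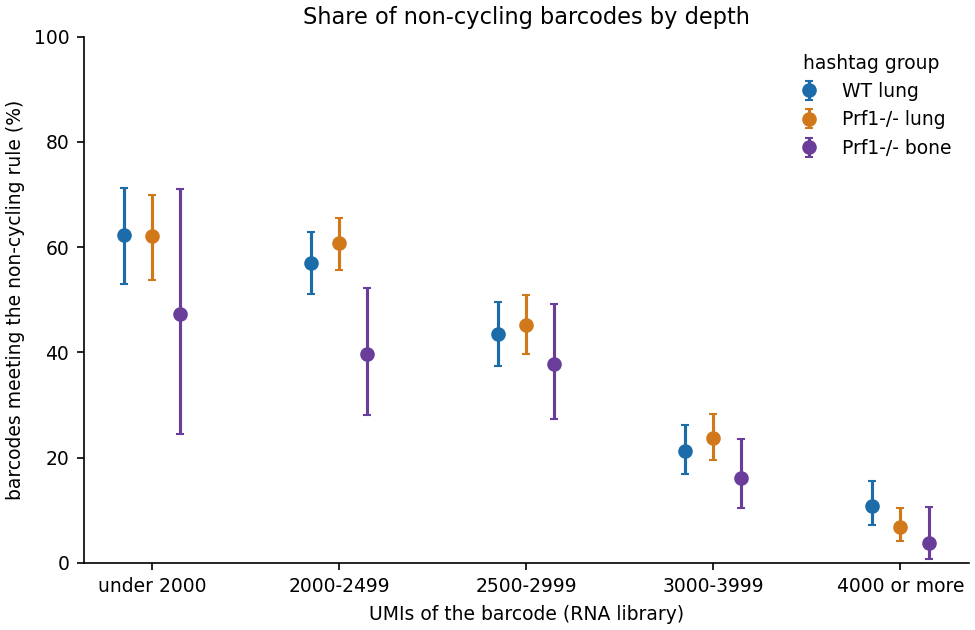
Percent of filtered cells that met the non-cycling rule (y axis) by total UMIs per cell in 5 bins (x axis), for the 3 hashtag groups, with 95% Clopper-Pearson intervals. In each group the share falls with depth, and the bone points lie below both lung points in all 5 bins, as in the bin from 2000 UMIs (39.7% against 57.0 and 60.7%).

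The cells carried the identity of the line. Melanoma markers summed to 16202 CPM in non-cycling cells and 13123 CPM in the rest; 0 cells lacked all of them and 46 (1.48%) had fewer than 10 such UMIs. By hashtag the sum was 17081.5 CPM (WT lung), 16881.9 CPM (Prf1-/- lung) and 13520.7 CPM (bone). All 12 T and NK cell markers were at 0 UMIs. The pan-immune sum was 262 CPM against 254 CPM in the rest, and 95.3% of it was Arhgdib; Ptprc, which encodes the CD45 used in the sort, had 1 UMI.

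Fibroblast, neutrophil and osteoblast signal lay mostly in a few barcodes. Fibroblast markers were at 75.3 CPM against 6.77 CPM in the rest, and 4 cells held 90.1% of those UMIs. Neutrophil markers were at 11.6 against 0.51 CPM, with 96.6% in 1 cell, and osteoblast markers at 10.5 against 1.82 CPM, with 79.7% in 2 cells. Epithelial markers ran the other way, at 18.6 against 64.6 CPM, and the 832 endothelial and 237 osteoclast marker UMIs were spread, with 0 barcodes holding 5 or more of either list. Barcodes with 5 or more UMIs of such a marker list were left out in an alternative given beside the collagen value below.

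The threshold cut through a gradual range. Inside it were 2124 cells with 0 UMIs of either rule set and 981 with 1 replication UMI, and just outside were 356 with 2 replication UMIs and 772 with 1 mitotic UMI. The other G2 and M genes summed to 988, 1053, 1214 and 1374 CPM in these 4 sets, against 4830 CPM in the 4247 cells with 5 or more rule UMIs. The other S phase genes followed with 852, 925, 1424 and 1129 CPM against 3427 CPM. Cdkn1a stood at 234, 199, 154 and 165 CPM against 98.9 CPM, and Dct, a melanin synthesis enzyme, at 4344, 4100, 3878 and 3859 against 3006 CPM.

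Non-cycling cells were compared with the rest from summed UMIs. A gene was called where its CPM ratio was at least 1.5-fold in either direction, with an exact 95% interval that left out 1, among 7737 genes with a mean of at least 10 CPM outside the rule. By this definition 296 genes (3.83%) were higher and 492 (6.36%) lower, and 291 and 489 with a 99.9% interval. These intervals cover counting error only and are not adjusted for the number of genes. Because cells were chosen by cell cycle transcripts, these values describe the chosen cells and are not a test.

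The rest of the G2 and M machinery was low. Of 39 measured genes of the G2 and M list (44 entries), 37 were lower, and the median log2 ratio was -3.21 against 0.04 over all genes. The list summed to 1009 CPM against 3905 CPM in the rest, a ratio of 0.258. Ccna2, the cyclin that carries cells through S phase into mitosis, had 6 UMIs in non-cycling cells and 1136 in the rest (0.797 against 57.4 CPM, ratio 0.0139, 0.00509 to 0.0303). Plk1 was at 1.86 against 52.4 CPM (0.0355) and Cdc20 at 3.85 against 72.8 CPM (0.0529). Cdk1 was less depleted, at 19.8 against 138 CPM (0.143), as was Hmgb2, a chromatin protein, at 48.2 against 325 CPM (0.148).

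The 2 measured genes of the list that were not lower were Pttg1, the separase inhibitor securin, and Arl6ip1, a membrane-shaping protein of the endoplasmic reticulum. Pttg1 was at 109 against 95.1 CPM (1.14, 1.05 to 1.24) and Arl6ip1 at 256 against 333 CPM (0.768). Among kinetochore and spindle genes, Cenpa, the centromeric histone, was at 7.84 against 121 CPM (0.0646) and Hmmr, a spindle assembly factor, at 5.98 against 109 CPM (0.0551).

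S phase genes outside the rule followed. Of 36 measured (38 entries), 32 were lower, with a median log2 ratio of -2.08 and a sum of 876 against 2864 CPM (0.306). Pclaf, which binds the replication clamp Pcna, was at 13.2 against 321 CPM (0.0409). Clspn was at 3.45 against 56.7 CPM (0.0609) and Cdc6, which loads the replicative helicase, at 1.06 against 24.1 CPM (0.044). With rule and counts thinned to 1500 UMIs these ratios rose, to 0.0806 for Pclaf, 0.145 for Clspn and 0.122 for Cdc6, and Ccna2 to 0.035, all still lower. Nasp, a histone chaperone, and Dut, which keeps uracil out of DNA, were less depleted, at 69.7 against 248 CPM (0.281) and 68.3 against 244 CPM (0.279).

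Of 31 chromatin and tubulin genes 21 were lower, with a median of -0.81. H2afz, a variant histone, was at 679.5 against 2046 CPM (0.332), Stmn1, which destabilises microtubules, at 121 against 517 CPM (0.235) and Tuba1b at 231 against 552 CPM (0.419). Tubulins are closely related genes, as are the histone genes named below, and reads may be shared among near copies.

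The upstream switch differed by gene. Of 13 measured genes of D-type cyclins, E2F factors and their partners, 1 was higher and 5 were lower. Ccnd2 (cyclin D2) was the one higher, at 691 against 383 CPM (1.80, 1.74 to 1.87). Ccnd1 was at 245 against 214 CPM (1.14), Cdk4 at 260 against 320 CPM (0.813) and Myc had a ratio of 1.15 (0.973 to 1.36), none past 1.5-fold. E2f1, an activating E2F, was at 5.45 against 39.2 CPM (0.139) and Ccne1 (cyclin E1), an E2F target, at 8.9 against 36.3 CPM (0.245). Cyclin D2 and cyclin E1 transcripts thus stood on opposite sides.

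Among inhibitors, Cdkn1a was at 223 against 108 CPM (2.07, 1.94 to 2.21). Cdkn1b, which encodes p27, was at 140 against 115 CPM (1.22), below the fold used. Genes that hold the repressed state were not higher: Rb1 had a ratio of 0.894, Rbl2 (p130) 0.904, Dyrk1a, the kinase that assembles DREAM, 0.843 and Lin37 1.12. Of 9 DREAM genes measured, 5 were lower, including Rbl1 (p107, 0.317), itself an E2F target.

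**Figure D2:**
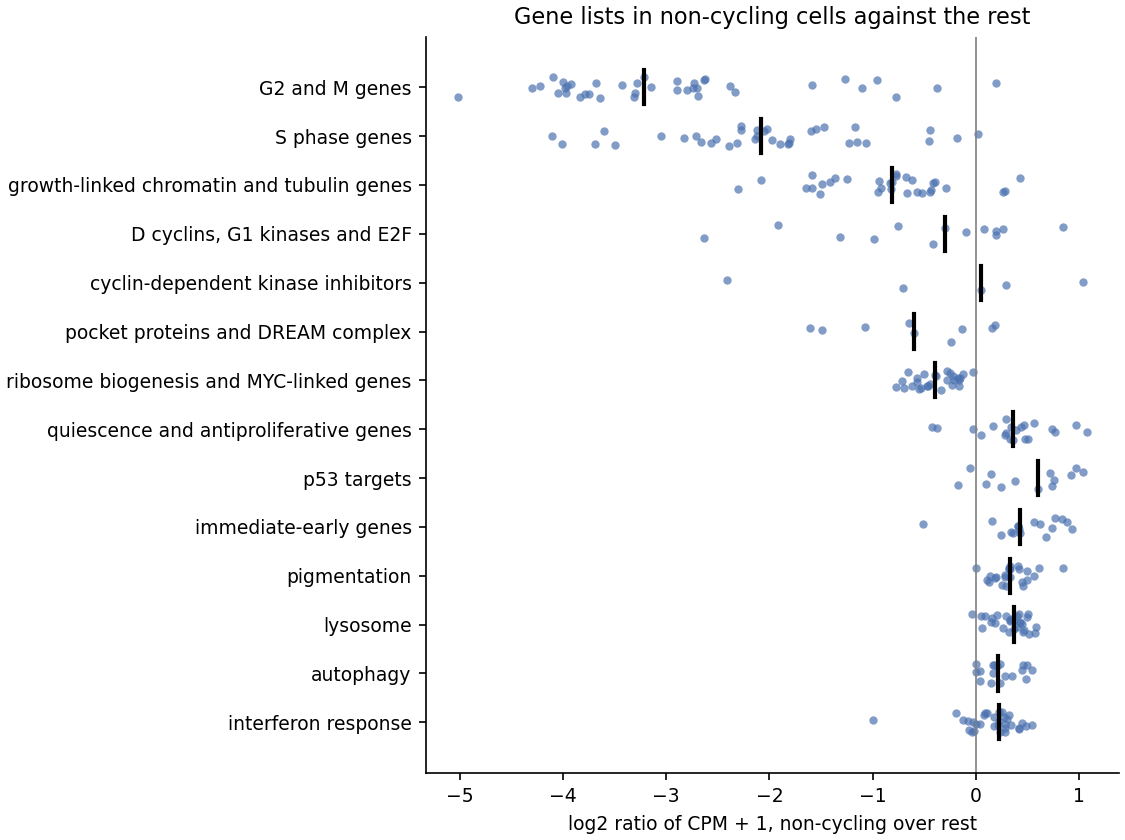
Log2 CPM ratio of non-cycling cells over the rest (x axis, 1 CPM added to each side) for the measured genes of each gene list (rows); each point is a gene and the bar is the list's median. The G2 and M genes (median -3.21) and S phase genes (-2.08) outside the rule lie lowest, ribosome biogenesis lies below 0 (-0.39), and p53 targets (0.60), lysosome genes (0.37) and pigmentation genes (0.33) lie above 0.

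The p53 target list was the one with the largest positive median among those described here, 0.60, and 7 of its 13 measured genes were higher. Besides Cdkn1a these were Ccng1, a cyclin that p53 induces (74.4 against 37.4 CPM, 1.99), Phlda3, an inhibitor of Akt (152 against 89.8 CPM, 1.70), Plk2 (51.5 against 26.7 CPM, 1.93), Trp53inp1 (1.73), Zmat3 (1.69) and Bbc3, which encodes the cell death inducer PUMA (1.55). When ratios were taken within bins of total UMIs, Trp53inp1 (1.26), Bbc3 (1.38) and Zmat3 (1.497) no longer passed 1.5-fold, which leaves 4 of the 7 calls. Mdm2 and Bax, also p53 targets, had ratios of 1.19 and 1.11 and were not called. Of 21 genes associated with quiescence 4 were higher: Btg2, Ccng1, Pdcd4 and Sesn3.

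Immediate early genes, which stimulation and tissue dissociation both induce, were higher for 7 of 17 measured, with a median of 0.43. They included Junb (241 against 135 CPM, 1.79), Egr1 (1.68), Atf3 (1.55), Zfp36 (1.92) and Klf2 (1.92). Atf3 was not called within bins of UMIs (1.35) or with 0 replication UMIs (1.48). Fosb ran the other way over all cells pooled, at 46.2 against 66.3 CPM. Thinned to 1500 UMIs, it was detected in 3.14% of non-cycling and 4.23% of rest cells of WT lung. The shares were 4.10 and 5.57% in Prf1-/- lung and 26.1 and 21.8% in bone, with overlapping intervals in each group. Within groups the median of the list was 0.36 in WT lung and 0.47 in Prf1-/- lung. In bone it was 0.065, with 9 of 17 genes above 0, 2 called higher and 1 lower.

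Most genes of growth, pigment and lysosome did not pass 1.5-fold, though those of a list leaned one way. All 28 ribosome biogenesis genes measured had a log2 ratio below 0 (median -0.39), and 5 were called lower, among them Nop56 (112 against 192 CPM, 0.584) and Srm, which makes spermidine (0.616, but 0.687 and not called within bins of UMIs). Ncl (nucleolin), at 815 against 1206 CPM (0.676), and Npm1 (0.761) were not past 1.5-fold. The 77 ribosomal protein genes had a median of -0.01.

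All 24 pigmentation genes were above 0 with a median of 0.33, and 2 were called, Oca2 (1.82), a melanosome channel, and Myo5a (1.54), a melanosome motor. Myo5a was not called with median-of-ratios scaling (1.49), with 0 replication UMIs (1.47) or in barcodes with a hashtag group (1.48). Dct was at 4264 against 3208 CPM (1.33), Pmel, the melanosome fibril protein, at 3883 against 3077 CPM (1.26), and Mitf at 521 against 390 CPM (1.33). Of 29 lysosome genes 28 were above 0 (median 0.37) and 1 was called higher, and all 18 autophagy genes (0.22) and all 13 mitochondrially encoded genes (0.26) were above 0 with 0 called. The median over all genes tested was 0.04.

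Among genes with a mean of at least 20 CPM that passed the naming rule, the largest ratio belonged to Kcnj13, a potassium channel, at 157 against 55.6 CPM (2.82, 2.60 to 3.07). It was higher in each group, with ratios of 2.58 (WT lung), 3.23 (Prf1-/- lung) and 3.31 (bone). Abca1, which exports cholesterol, was at 100.4 against 37.1 CPM (2.70), and Mxd4, a Max partner that opposes Myc, at 122.5 against 51.4 CPM (2.38). Hist1h2bc, an H2B gene, was at 217 against 93.2 CPM (2.33), and Kdm5b, a histone demethylase, at 47.8 against 20.4 CPM (2.34). By the same naming rule Ahnak2, Coq8a, Map1a and Kdm7a were also high, and Melk, Fbxo5, Knl1, Hist1h3c, Rad51ap1, Ckap2l, Asf1b and Pbk were low. Mxd4 and Abca1 were above 1 in each hashtag group, with Mxd4 at 1.79, 2.13 and 1.83 and Abca1 at 2.77, 1.86 and 1.95 (bone interval 0.930 to 3.90).

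The calcium-binding proteins S100a6 and S100a4 were at 265 against 116 CPM (2.27, 2.14 to 2.42) and 76.1 against 34.7 CPM (2.20). The S100a6 ratio was 2.16 in WT lung and 2.48 in Prf1-/- lung, while in bone it was 1.32 (0.684 to 2.39). The difference between groups was not tested. Pdcd4, an inhibitor of translation initiation, was at 41.7 against 19.2 CPM (2.17). Lgals7, a galectin, was at 693 against 392 CPM (1.77) and Spp1 (osteopontin) at 212 against 130 CPM (1.64).

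In cells thinned to 1500 UMIs, Kcnj13 was detected in 15.9% of non-cycling cells, 6.56% of the rest and 2.90% of 69 alveolar-type barcodes (median 565 UMIs, unthinned). Those barcodes were picked by lung epithelial transcripts, so a share in them can hold free RNA and RNA of the epithelial cells themselves. Cd74 was detected in 73.9% of them and in 1.81% of non-cycling cells. Lgals7 was detected in 49.3%, 36.1% and 2.90%. S100a6 was detected in 21.8%, 12.5% and 13.0%, and Cdkn1a in 17.5%, 10.8% and 13.0%. The interval of that 13.0% (9 of 69 barcodes) ran from 6.14 to 23.3% at a lower depth and covers the shares of both cell sets. Whether that 13.0% is free RNA or RNA of the epithelial cells was not tested. For these 2 genes it therefore does not show how much free RNA the cells held. In the same capture, S100a6 was detected in 25.3% of Prf1-/- lung and 3.26% of bone non-cycling cells, and Cdkn1a in 19.5% and 7.61%. The part of free RNA in these shares was not tested.

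The extracellular matrix list needs its carriers named. Col1a1 was at 32.5 against 0.758 CPM in the rest, and 5 of 13 genes of the list were higher. Without barcodes holding markers of other cell types the Col1a1 ratio was 1.32 and it was not called. Within groups, 3 of 12 measured genes of the list were higher in WT lung (median 0.36), 4 of 12 in Prf1-/- lung (0.30) and 1 of 10 in bone (-0.08). Over all genes tested 384 of 7744, 363 of 7727 and 282 of 7574 were higher in these groups.

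One chemokine was lower. Among 32 interferon response genes measured, 24 were above 0 (median 0.22) and 1 was called, Cxcl10, which draws T cells through Cxcr3, at 168 against 337 CPM (0.498, 0.469 to 0.529). It was lower in each group, with ratios of 0.495 (WT lung), 0.617 (Prf1-/- lung) and 0.447 (bone), and 0.467 in cells with no hashtag row. After thinning to 1500 UMIs it was detected in 9.54% of non-cycling cells, 22.6% of the rest and 2.90% of the alveolar-type barcodes. Ccl5, another T cell chemokine, stood the other way at 153 against 104 CPM (1.48), just under the fold used, and Ifit3 and Isg15 had ratios of 1.34 and 1.22.

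**Figure D3:**
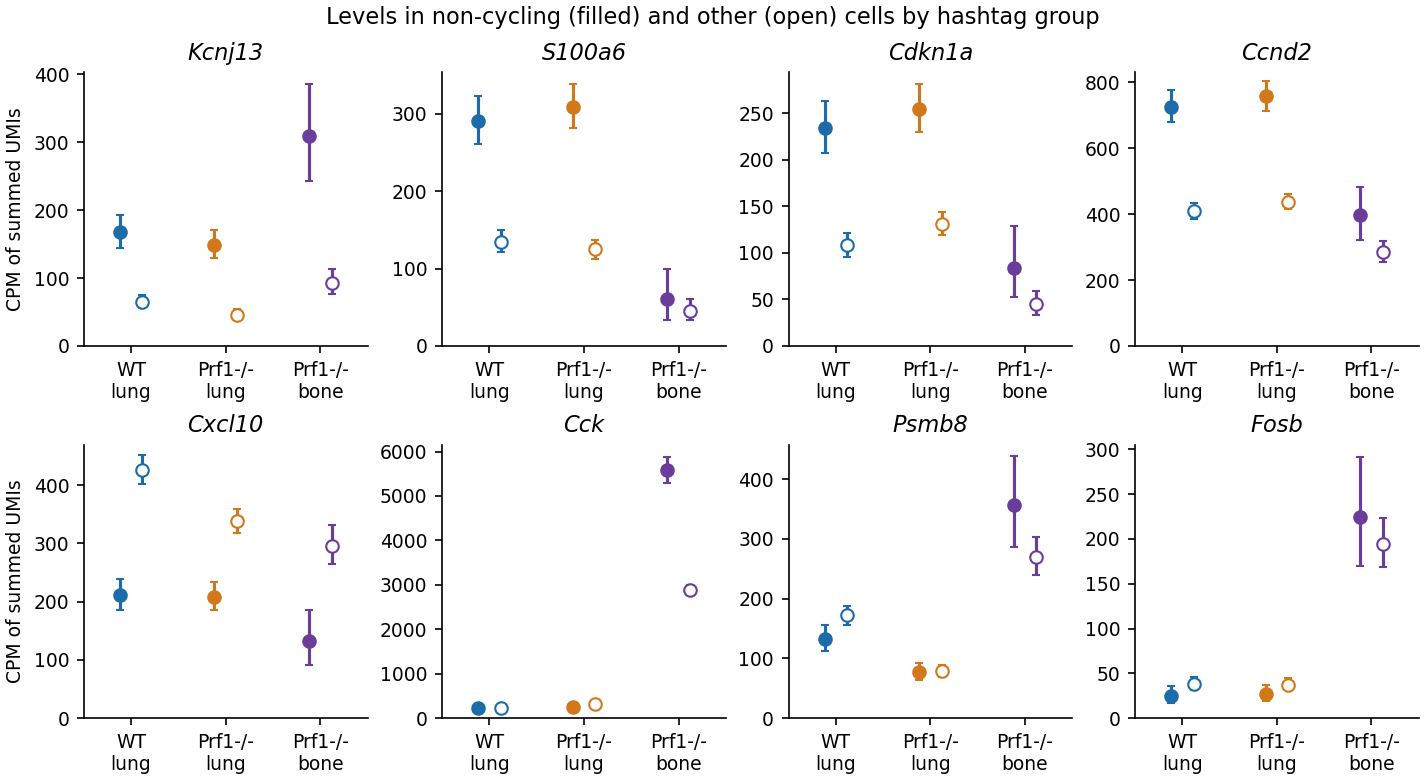
CPM of 8 genes (1 panel each, linear y axes from 0 with their own range) in non-cycling (filled) and remaining (open) cells of each hashtag group; points are sums over the cells of 1 group, with 95% counting intervals. Kcnj13 is higher in non-cycling cells in each group, and Cck stands at 222 and 250.8 CPM in the lung groups and 5573 CPM in bone.

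The 2 lung groups differ by host genotype, so non-cycling cells of Prf1-/- and WT lung were compared for the transcripts they carried with and without host perforin. Of 7661 genes measured 140 (1.83%) were higher and 142 (1.85%) lower in Prf1-/- lung, and with a 99.9% interval 8 and 26. Most calls therefore did not meet the stricter interval. In the rest cells 83 of 7713 genes (1.08%) were higher and 114 (1.48%) lower.

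Part of the interferon response genes were lower when the host lacked perforin. Of 33 genes measured 14 were lower and 1 was above 0, with a median log2 ratio of -0.56 against 0.01 over all genes; in the rest cells 18 of 34 were lower with a median of -0.60. Iigp1, an interferon-induced GTPase, was at 111 CPM (WT) and 46.1 CPM (Prf1-/-), a ratio of 0.416 (0.306 to 0.561), and Ifit3, which restrains viral RNA, at 228 and 137 CPM (0.602). Gbp2 had a ratio of 0.472 and Rsad2 (viperin) 0.66, which moved to 0.783 without the highest cell of each group. Ifit2 was at 0.406, and 1 cell held 28.2% of its WT lung UMIs. In cells of at least 1500 genes Ifit3 (0.87) and Ifit2 (0.566) were no longer called, nor was Apol9a (0.449, then 0.715).

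Antigen processing genes were lower too. Of 17 MHC class I genes 6 were lower (median -0.34; rest cells 5 of 16, -0.52). They were the immunoproteasome subunits Psmb8 (133 and 76.9 CPM, 0.578, 0.450 to 0.740), Psmb9 (44.4 and 20.7 CPM, 0.467) and Psmb10 (0.579), the proteasome activator Psme2 (0.635), and the peptide loading genes Tap2 and Tapbp, which did not meet the 99.9% interval. In cells of at least 1500 genes Psmb8 (0.617), Psmb10 (0.704) and Tap2 (0.185) were not called, and Tapbp (0.710) was not called when thinned to 1500 UMIs. The class I chains themselves were not past 1.5-fold, with H2-K1 at 476 and 407 CPM (0.855), H2-D1 at 800 and 632 CPM (0.79) and B2m at 1315 and 1252 CPM (0.952). These H2 genes are near copies of each other.

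Few genes outside those lists passed the naming rule. Dnajb1, an Hsp40 co-chaperone of the heat shock response, was at 64.9 CPM in WT and 156 CPM in Prf1-/- non-cycling cells (2.40, 1.85 to 3.15), but at 1.27 in cells of at least 1500 genes. Lgals3 (galectin-3) was at 151 and 55.5 CPM (0.367, 0.280 to 0.479), from 53 and 33 cells. The rule kept cell cycle transcripts low on both sides, so their values here do not compare division in the 2 lungs. Of 15 G2 and M genes measured 1 was higher and 1 lower (median 0.05). Of 20 S phase genes outside the rule 0 were called (median 0.20, summed ratio 1.10, 1.01 to 1.20). The medians of p53 targets and pigmentation were -0.03 and -0.06. Of 11 hypoxia genes 9 were above 0 (median 0.29, summed ratio 1.27, 1.16 to 1.38). Bnip3 (1.90) and Kdm3a (1.99) were called higher and Car9 (0.56) lower, and none of the 3 met the 99.9% interval. Car9 was also not called when thinned, with the stricter hashtag ratio, without its highest cells or in cells of at least 1500 genes.

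Bone was compared with the lung of the same Prf1-/- genotype, over 92 and 586 non-cycling cells. Both this comparison and the one above use the Prf1-/- lung group. Of 7624 genes 243 (3.19%) were higher and 272 (3.57%) lower in bone, and with a 99.9% interval 48 and 51. In the rest cells 188 of 7640 genes (2.46%) were higher and 326 (4.27%) lower.

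The largest ratio in bone was that of Cck, the cholecystokinin gene, whose product is a gut and brain peptide hormone. Non-cycling cells held 222 CPM (WT lung), 250.8 CPM (Prf1-/- lung) and 5573 CPM (bone), a ratio of 22.2 over Prf1-/- lung (19.8 to 24.97), and 10.7 in cells of at least 1500 genes. The rest cells gave 223, 312 and 2886 CPM and a ratio of 9.25 (8.61 to 9.95); the difference between the 2 ratios was not tested. In bone the UMIs came from 40 cells, the highest of them holding 7.77%. After thinning to 1500 UMIs, 29.3% of bone non-cycling cells (27 of 92, 20.3 to 39.8%) had 10 or more Cck UMIs and held 95.2% of its UMIs, against 1.37% of Prf1-/- and 0.224% of WT lung cells. In the alveolar-type barcodes 5.80% (4 of 69) had any Cck UMI. The hormone transcript was thus high in part of the bone cells.

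Antigen presentation was higher in bone. The 7 MHC class II entries summed to 293 CPM against 41.5 CPM (7.06, 4.96 to 10.1), and the 4 that passed the level filter were higher. In the lung comparison 2 entries passed, so bone values brought the others in and the count is partly fixed by the filter. Cd74, the invariant chain of class II, was at 20.5 CPM (WT lung), 15.4 CPM (Prf1-/- lung) and 112 CPM (bone; 7.30, 4.05 to 13.3) and H2-Aa had a ratio of 11.2 (4.47 to 30.6). Of 18 class I genes 7 were higher, with Psmb8 at 133, 76.9 and 357 CPM (4.64, 3.48 to 6.17) and Psmb9 at 44.4, 20.7 and 100.2 CPM (4.83). In cells of at least 1500 genes neither was called (1.72 and 2.70). H2-K1 was at 476, 407 and 617.5 CPM (1.52), but 1.48 without the highest cell of each group. The bone cells lay above both lung groups for these genes, although the Cd74 value rests on 28 bone UMIs. Of immune markers, bone held 4 UMIs of the B and plasma cell list (6 of 8 genes at 0; 16.0 CPM against 2.56 and 2.01 CPM in the lungs) and 7 UMIs of the monocyte, macrophage and dendritic list (8 of 12 at 0; 28.1 CPM against 20.5 and 12.04 CPM), and their part in the class II values was not tested. Of 34 interferon genes 11 were higher and 2 lower (median 0.46). In the rest cells 10 were higher and 0 lower (median 0.21). Among the 2 lower genes was Cxcl10, at 211, 209 and 132 CPM (0.634). Its ratio moved to 0.284 without its highest cells and to 0.729, not called, within bins of UMIs. Leaving out the highest cell of each group takes a larger part of the smaller bone group, so it tends to lower bone ratios.

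Some genes of cholesterol synthesis were higher in the non-cycling bone cells. Of 22 measured 5 were higher and 20 above 0, with a median of 0.59 and a sum of 2025 against 1354 CPM (1.495, 1.35 to 1.65). Fdps, which makes farnesyl diphosphate, was at 267, 265 and 433 CPM, Mvk (mevalonate kinase) at 36.8 CPM in Prf1-/- lung and 84.2 CPM in bone, and Msmo1 at 95.6, 103 and 180 CPM. In the rest cells 1 of 22 was higher, where 2.46% of all genes were, and 9 were above 0, with a median of -0.15. Fdps was there at 364, 384 and 306 CPM. The difference between non-cycling and rest cells was not tested.

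Several immediate early genes were lower in bone, where digestion was also longer. Of 18 measured 8 were lower and 1 was higher (median -0.86). Socs3, a brake on cytokine signalling, was at 65.7, 61.5 and 4.01 CPM, the last from 1 UMI (0.0652, 0.00163 to 0.372), and Egr1 at 116, 126 and 16.0 CPM, the last from 4 UMIs (0.127, 0.0342 to 0.330). Junb (0.48) and Atf3 (0.202) were also lower. Fosb was at 24.8, 27.4 and 224.5 CPM (8.19, 5.38 to 12.6), so a member of the same family stood opposite the rest, while Fos had a ratio of 0.914.

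The p21 transcript was lower in bone, although within bone it was higher in non-cycling than in rest cells (1.88, 1.07 to 3.21). Cdkn1a was at 234, 255 and 84.2 CPM (0.33, 0.202 to 0.512), and in the rest cells at 108, 131 and 44.8 CPM. Ccnd2 was at 726.5, 758 and 397 CPM (0.524). S100a6 was at 291, 309 and 60.1 CPM (0.195, 0.108 to 0.324), where 15 UMIs were counted in bone and 1 cell gave 60% of them. S100a4 was at 84.5, 111 and 20.1 CPM (0.181) and Vim (vimentin) at 2736, 2960 and 1496 CPM (0.505). In cells of at least 1500 genes S100a4 (0.655) and Cdkn1a (0.504) were not called, and with 0 replication UMIs Cdkn1a was at 0.155. Kcnj13 ran the other way, at 167, 149 and 309 CPM (2.07, 1.58 to 2.69), and Arfgef3 at 34.1, 48.8 and 168 CPM (3.45), though neither was called in cells of at least 1500 genes (1.77 and 2.03).

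Of 24 pigmentation genes 2 were lower in bone, 0 were higher and 8 were above 0 (median -0.24). Mlph, which tethers melanosomes, had a ratio of 0.454 and Myo5a 0.578, and Dct was at 4411, 4624 and 3220 CPM. Other genes picked out by ratio were Ucp2, Fxyd1, Ap4s1, Ifi203 and Cmtm7, which were higher, and Myo1e, Slc39a10, Hist1h1c and Nr4a1, which were lower. None of them was called in cells of at least 1500 genes, and Cmtm7 was also not called when thinned (1.61). Myo1e rested on 1 bone UMI and Nr4a1 on 2. Of 40 genes followed for bone, 34 lost their call or moved by more than 1.5-fold under at least 1 alternative. With cells of at least 1500 genes 15 bone cells remained, and S100a6, Iigp1, H2-K1, Myo5a, Ifi203 and the interferon median then changed sign. Of the genes named for bone, Bvht, Cd109, Itsn2, Rragd, Nr4a1, Cxcl10, Msmo1 and Mvk did not meet the 99.9% interval.

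**Figure D4:**
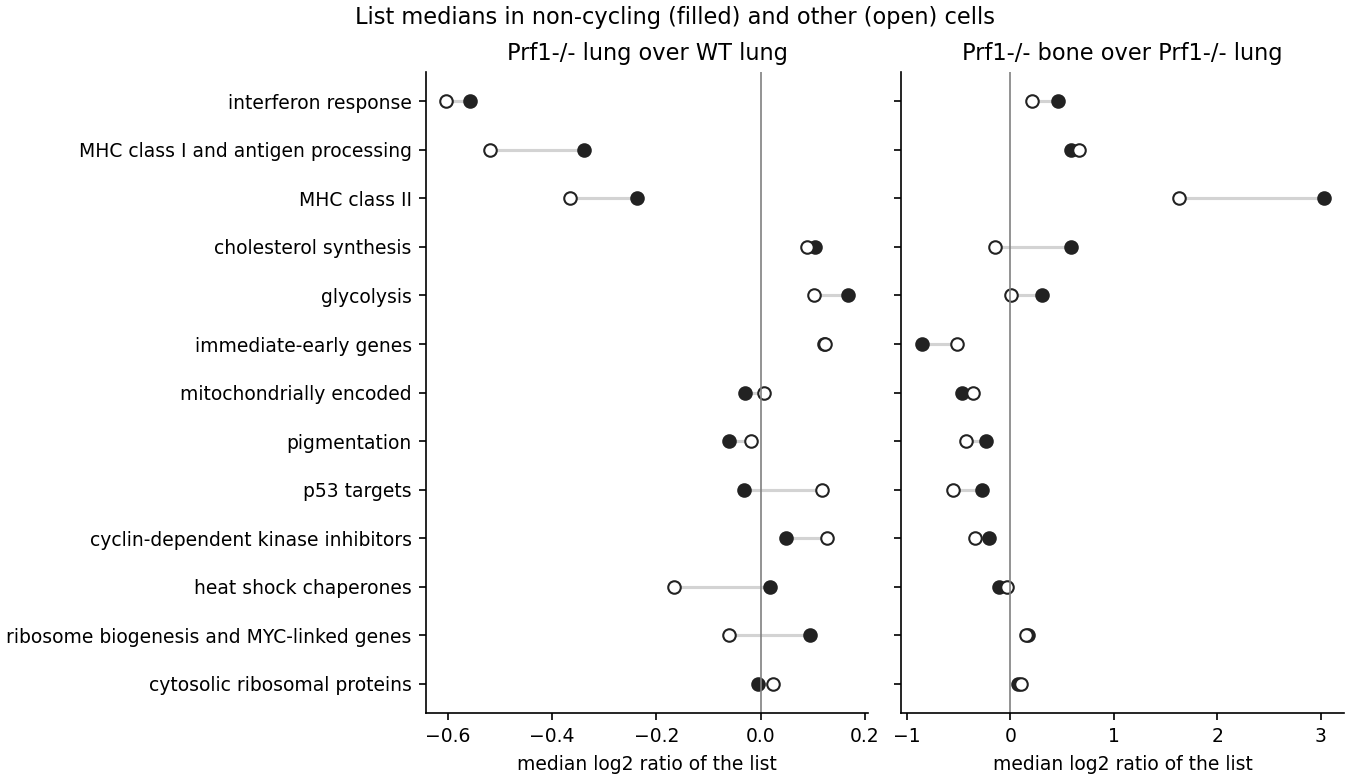
Median log2 CPM ratio of each gene list (rows) for Prf1-/- lung over WT lung and for Prf1-/- bone over Prf1-/- lung (2 panels, x axes of different range), in non-cycling (filled) and remaining (open) cells. The interferon list lies at -0.56 and -0.60 for the lung comparison and at 0.46 and 0.21 for the bone comparison; cholesterol synthesis in bone lies at 0.59 in non-cycling and -0.15 in the remaining cells.

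At 1500 UMIs per cell, few genes stood well above counting error among non-cycling cells. In cells thinned to 1500 UMIs, the Fano factor (variance over mean of the UMI count, near 1 for counting alone) had a median of 1.02 over 4100 genes with a mean of at least 0.05 UMIs, and 28 genes reached 2. In the rest 23 of 4142 did. At 2500 UMIs per cell 63 of 4043 genes reached 2 among non-cycling cells, so the count depends on depth. Genes with few UMIs can vary among cells and still lie near 1. Cck was the most variable, at 26.2, followed by Ccl5 at 9.97, the nuclear RNA Malat1 at 8.39 and Cxcl10 at 6.34.

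Interferon genes and stress genes made up part of the others. Rsad2 stood at 5.15, with 7.69 in WT lung and 2.06 in Prf1-/- lung, and Ifit3 at 3.00. Ifit2 was at 2.76 and at 1.92 without its highest cell. Lgals3 was at 3.83, Ptgds, a prostaglandin synthase, at 3.75 and the small heat shock protein Hspb1 at 2.70. The Cck value was 6.17 (WT lung), 10.1 (Prf1-/- lung) and 23.4 (bone), so it was uneven in all 3 groups.

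**Figure D5:**
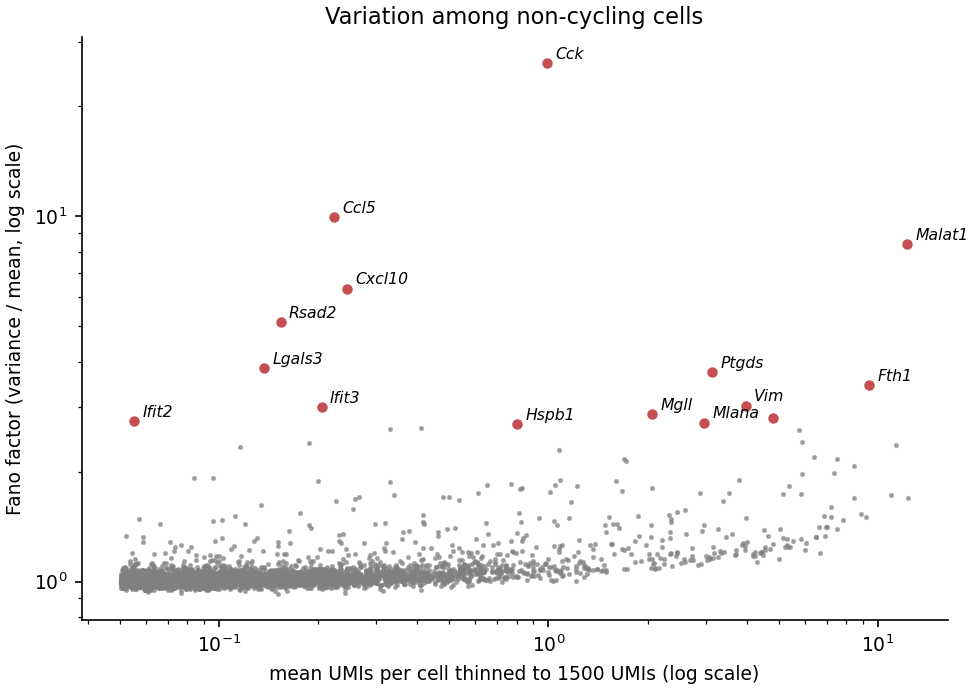
Fano factor (y axis, log scale) against mean UMIs per cell (x axis, log scale) for 4100 genes in non-cycling cells thinned to 1500 UMIs; each point is a gene. Most genes lie near 1 (median 1.02), and Cck (26.2), Ccl5 (9.97), Malat1 (8.39) and Cxcl10 (6.34) stand highest.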

How the data were processed

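Sorted B16F10 cells were measured in 1 pooled 10x 3′ run with 2 libraries, RNA and hashtag antibodies. The deposited tables hold raw UMI counts per gene or hashtag and barcode, as the file headers show; they were made with Cell Ranger (6.1.2 per the submitters' processing notes, 6.0.0 per the file headers) on mm10, and the notes also name Seurat 4.3.0. An annotated object was not used here. Doublets were not called within a hashtag group. Ambient RNA was not removed.

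From the counts, cells with at least 1000 genes and at most 15% mitochondrial UMIs were kept, and hashtag groups were assigned at a ratio of 2. Counts were summed over cells and set per 1000000 (CPM). Ratios have exact conditional binomial 95% intervals, log2 ratios add 1 CPM to each side, and genes needed a mean of 10 CPM, which a gene can reach through its high side alone. Each condition was 1 sample, so there are no p-values. Thinning to 1500 UMIs used seed 1. Python 3.11.15, numpy 2.4.6, scipy 1.17.1, pandas 2.3.3 and matplotlib 3.10.9 were used. The code for the calls was run on simulated counts that held counting error alone. That run leaves out spread between cells and does not show how sound the calls are in these data.

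The members and the 39 gene lists were chosen with earlier results of these data known. Named genes were the rule genes, up to 12 per side with the most extreme ratio among those with at least 20 CPM, 50 UMIs and an interval wholly beyond 1.5-fold, leading members of the lists, and the 15 genes with the largest Fano factor; a few further list members were named after their values were seen. Alternatives covered the filters, the scaling, the rule's threshold, the depth and single cells; the 99.9% interval and the removal of barcodes with 5 or more UMIs of 6 other cell types' markers were added after seeing the data.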

Additional observations from a re-analysis of the deposited data

How the results depend on the processing

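Each condition was 1 sample, so no paired analysis was possible because no replicates with shared numbers were compared. The share of non-cycling cells moved with the rule and with depth. In the order all cells, WT lung, Prf1-/- lung, bone, it was 11.1, 13.95, 13.7 and 8.33% with at least 1500 genes, 22.02, 24.6, 26.3 and 15.3% with 0 replication UMIs, and 45.9, 50.7, 53.1 and 36.9% with at most 2 replication and 1 mitotic UMIs. Thinned to 1500 UMIs it was 40.6, 46.9, 49.6 and 34.3%, and to 2500 UMIs 24.5, 29.6 and 31.3% in the first 3. Bone was lowest under each of these settings (20.8% at 2500 UMIs). Against the rest, genes called higher and lower were 913 and 836 without a filter and 66 and 145 from 50 CPM; higher calls were 599 with at least 1500 genes and 522 against a rest with 5 or more rule UMIs. In Prf1-/- against WT lung they were 21 and 33 from 50 CPM and 8 and 26 with the 99.9% interval. In bone against lung they were 126 and 149 from 50 CPM, 159 and 73 with at least 1500 genes, 126 and 454 without the top cell of each gene, and 48 and 51 with the 99.9% interval. Leaving out the top cell takes 1 of 92 bone cells but 1 of 586 lung cells, so that setting tends to lower bone ratios by its design. Genes with a Fano factor of at least 2 were 63 at 2500 UMIs. Signs changed with at least 1500 genes, where 15 bone cells remained: in bone the medians of interferon (-0.54), NF-kB (0.42), TGF-beta (0.31), YAP-TAZ (0.041; also 0.0535 when thinned to 1500 UMIs) and lymphocyte ligand genes (0.26), and the log2 ratios of H2-K1 (-0.20), Ifi203 (-0.99), Iigp1 (-5.46), Myo5a (0.30) and S100a6 (0.26); in lung, Bnip3 (-0.51). The cause was not tested. Depth limits bone most, where 3 UMIs are worth 12.03 CPM.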

Other observations

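Within non-cycling cells thinned to 1500 UMIs, transcripts were found together in some pairs more often than in others. S100a4 was detected in 23.2% of cells with S100a6 (157 of 676) and 5.52% of cells without it. Phlda3 was detected in 38.2% of cells with Cdkn1a and 14.0% without, and Ccng1, like Cdkn1a and Phlda3 a p53 target, in 22.9% and 7.15%. Rsad2 was detected in 31.2% of cells with Ifit3 and 6.23% without.

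Kcnj13 was somewhat less often found with S100a6 or Cdkn1a. It was detected in 11.5% of cells with S100a6 and 17.1% without, and Cdkn1a was detected in 9.72% of cells with Kcnj13 and 18.9% without. Cells with Kcnj13 more often held Lgals7 (64.2% against 46.5%), Spp1 (35.6% against 17.9%), and Kcnj13 was found in 28.8% of cells with Cck and 14.3% without. These shares come from 1 pooled library, the cells of all hashtag groups are mixed in them, and bone cells hold more of both Cck and Kcnj13. Bone cells also hold less S100a6 (3.26% against 25.3% of Prf1-/- lung cells) and less Cdkn1a (7.61% against 19.5%). Pairs were not counted within single groups, so the part of this mixing in them was not tested.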
